A study of Sus scrofa with 2 samples.

Results

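The genes described here encode 5 enzymes that modify and cross-link collagen: the lysyl oxidases LOX, LOXL1 and LOXL2 and the collagen hydroxylases P4HA1 and PLOD2. They were taken by gene symbol from the 28155 genes counted in single-cell RNA sequencing libraries of cultured pig adipose-derived stem cells (ADSCs), the stromal cells that grow out of digested fat. All 5 symbols were present and all 5 passed the filter on low counts in every comparison. Fat from the chest region of healthy Bama miniature pigs was the source of the cells. They were grown for 3 generations in at most 14 days and then cryopreserved. Both libraries, 1 and 2, belong to a single untreated group. No age is given, and nothing says that separate animals or cultures stand behind them. The title of the study places the cells in work on preventing keloids, which are scars of excess collagen, and names functional subgroups of the cells as its subject.

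Collagen chains are hydroxylated inside the cell and cross-linked outside it. In the endoplasmic reticulum, prolyl 4-hydroxylases, made of a catalytic alpha subunit such as P4HA1 and the beta subunit P4HB, hydroxylate prolines and so stabilise the triple helix, and lysyl hydroxylases hydroxylate lysines. PLOD2, lysyl hydroxylase 2, acts on the lysines of the telopeptides at the chain ends, which steers later cross-links towards a stable type that builds up in scar tissue. After export, the copper-dependent lysyl oxidases turn lysines and hydroxylysines into aldehydes that join neighbouring molecules. LOX acts on fibrillar collagens and elastin, LOXL1 is best known for elastic fibres, and LOXL2 can also cross-link the collagen of basement membranes. These roles are known mainly from human and mouse work.

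Library 1 held 10559 barcodes with at least 1000 genes of 12251 in all, and library 2 held 11984 of 12956. A unique molecular identifier (UMI) marks 1 captured RNA molecule. The median was 19845 UMIs per cell in library 1 and 19652 in library 2, from 209737159 and 245421850 UMIs in all. All 10 stromal markers were detected in both libraries, and they summed to 5170 CPM (UMIs per 1000000 UMIs) in library 1 and 6560 CPM in library 2. Markers of fat cells, endothelium, macrophages, mural cells, epithelium, mesothelium and muscle summed to between 0.42 and 20.5 CPM per list and library. The muscle regulators MYF5, MYOD1 and MYOG were at 0 in both libraries. The epithelial marker KRT18 was at 0 in both. The libraries shared 35 cell barcodes. No cell type that should lack these enzymes was present in numbers that would give a level for free RNA.

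In the Sscrofa11.1 annotation, LOX lies on chromosome 2 at 125595115 to 125607026, LOXL1 on chromosome 7 at 59481410 to 59505161, and LOXL2 on chromosome 14 at 7435861 to 7540699. P4HA1 lies on chromosome 14 at 75827207 to 75919121 and PLOD2 on chromosome 13 at 86402673 to 86513167. All 5 are protein-coding. LOX overlaps the annotated locus LOC100525452, LOXL1 overlaps LOC110261566 and P4HA1 overlaps NUDT13. The strand setting of the counting is not given in the sources used here, so reads from the overlapped stretches of these 3 genes could have been assigned to either partner. LOXL2 and PLOD2 overlap no annotated gene.

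Among the lysyl oxidases, LOX had 68.8 CPM in library 1, with an exact Poisson 95% interval of 67.7 to 70.0, and 79.1 CPM in library 2 (78.0 to 80.3). LOXL1 had 37.4 CPM (36.6 to 38.2) in library 1 and 38.6 CPM (37.8 to 39.4) in library 2, so its intervals overlapped. LOXL2 had 11.8 CPM (11.3 to 12.3) in library 1 and 20.1 CPM (19.6 to 20.7) in library 2. Of the hydroxylases, P4HA1 had 121 CPM (120 to 123) in library 1 and 98.1 CPM (96.9 to 99.3) in library 2. PLOD2 had 29.9 CPM (29.1 to 30.6) in library 1 and 32.6 CPM (31.9 to 33.4) in library 2. The intervals cover counting error only, and with 1 sample on each side the libraries were not tested against each other. The counts come from a 3′ kit and have no length scale, so levels are set against each other only within a gene. Whether reads in introns were counted is not given in the sources used here.

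Of the 5 genes, LOXL2 alone differed by at least 1.5-fold between the libraries. Its log2 ratio of library 1 over library 2 was -0.77 (95% interval of counting error -0.84 to -0.70), a 1.71-fold lower level in library 1. Among all 8042 genes that averaged 10 CPM or more, 5.89% were lower by that much in library 1 and 5.71% were higher by that much. With 5 members, a count of 1 stands close to this background. The log2 ratios of the other members were 0.31 for P4HA1, -0.05 for LOXL1, -0.13 for PLOD2 and -0.20 for LOX. Averaged over cells instead of summed, the log2 ratio of LOXL2 was -0.46, under the 1.5-fold limit. Among non-cycling cells alone it was -0.92, and among cycling cells alone it was -0.64, with a mean level there under the 10 CPM limit. The ratio between the libraries also moved with the genomic length of genes (Spearman's rho -0.42 across 8035 genes, which are not independent replicates). Split into 10 length classes, the genes in the class of LOXL2 and PLOD2 had a median log2 ratio of -0.26, those around P4HA1 -0.18, those around LOXL1 -0.02 and those around LOX 0.03. The part of gene length in the LOXL2 difference was not tested.

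The relatives and partners of the members behaved as follows between the libraries. LOXL3 had 41.3 CPM in library 1 and 52.0 CPM in library 2, and LOXL4 had 4.02 CPM in library 1 and 5.63 CPM in library 2. Of the 10 other hydroxylase genes at 10 CPM or more, only P4HB, the beta subunit that P4HA1 needs, passed 1.5-fold, with 541 CPM in library 1 and 344 CPM in library 2. Of 12 folding and export genes, FKBP7 was at least 1.5-fold higher in library 1. Of 9 substrate genes at that level, COL12A1 was at least 1.5-fold higher in library 1, and COL3A1, COL5A2, COL14A1 and FBN1 were at least 1.5-fold lower. Of 8 genes for propeptide processing and lysyl oxidase activation and 5 for copper, ascorbate and iron supply, 0 differed by that much.

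**Figure D1:**
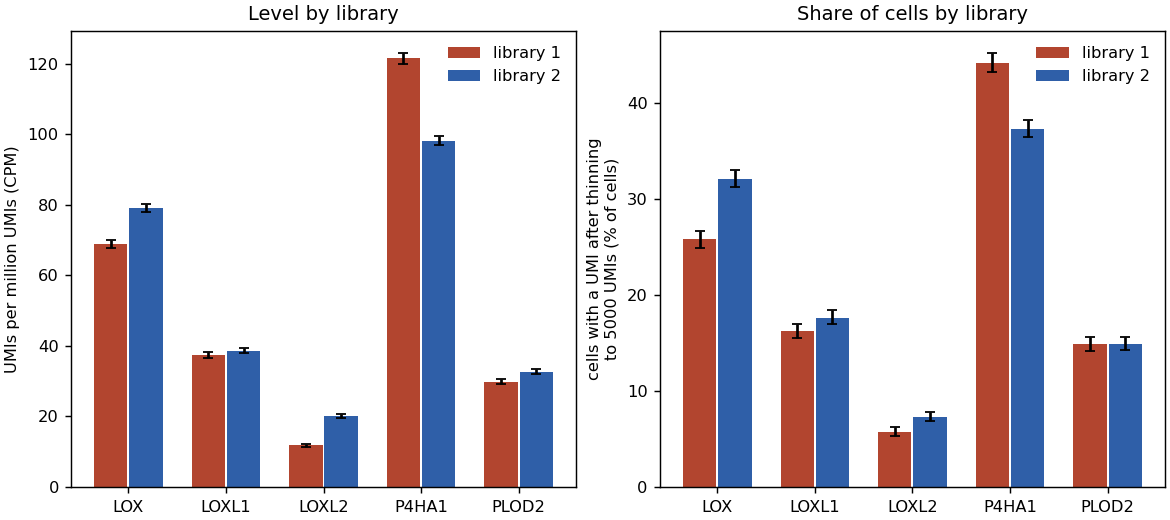
Left, the level of each gene in CPM by library, with exact Poisson 95% intervals. Right, the percentage of cells with at least 1 UMI after every cell was thinned to 5000 UMIs, with exact binomial 95% intervals. LOXL2 and LOX stood lower in library 1 than in library 2 and P4HA1 stood higher.

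At full depth, detection in single cells differed between the libraries in the same direction as the levels, though not by the same factor. LOX gave a UMI in 57.9% of cells in library 1 and 69.6% in library 2, LOXL1 in 44.2% and 46.8%, and LOXL2 in 14.8% and 18.6%. P4HA1 gave a UMI in 79.7% of cells in library 1 and 77.6% in library 2, and PLOD2 in 39.3% and 41.1%. With each cell thinned to 5000 UMIs, which kept 9581 cells of library 1 and 11598 of library 2, the shares were lower. They were 25.8% and 32.1% for LOX, 16.2% and 17.6% for LOXL1, and 5.73% and 7.30% for LOXL2 in libraries 1 and 2. They were 44.2% and 37.3% for P4HA1 and 14.9% in both libraries for PLOD2. At that depth 71.5% of cells in library 1 and 72.0% in library 2 held a UMI of at least 1 of the 5 genes, and 2 and 5 cells held all 5.

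The UMIs of LOXL2 were spread least evenly over cells. The 1% of cells with the most LOXL2 UMIs, 106 cells of library 1 and 120 of library 2, held 23.1% and 25.8% of all LOXL2 UMIs. For the other 4 genes the same share of cells held between 4.77% and 8.59%. LOXL2 also gave a UMI in the smallest share of cells of the 5 genes, and this measure rises as a gene gets sparser. The part of sparse detection in the difference was not tested. Those LOXL2-rich cells had at least 3 LOXL2 UMIs in library 1 and at least 6 in library 2, and 1 cell of library 2 had 45. Thinned to equal depth, the variance of LOXL2 over its mean was 1.30 in library 1 and 1.75 in library 2, against 1.08 to 1.18 for the other members. These are descriptions of cells that share a library and were not tested.

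Cycling cells were compared with non-cycling cells to show how the enzymes follow proliferation. A cell was called cycling if at least 3 of 15 core cycle genes, such as MKI67 and TOP2A, had a UMI after thinning. It was called non-cycling if none had. These limits gave 3826 cycling and 1851 non-cycling cells in library 1, and 4599 and 2570 in library 2. Median depths were 22918 against 20064 UMIs in library 1 and 20950 against 19921 UMIs in library 2. Cells with 1 to 2 core cycle genes were in neither class. Of the thinned cells, 39.9% and 39.7% were cycling and 19.3% and 22.2% were non-cycling in libraries 1 and 2. Later rankings of non-cycling cells covered only this subset. UMIs were summed per library and class and tested with edgeR's quasi-likelihood test with library as a block. Calls needed an adjusted p below 0.05 (Benjamini-Hochberg, over every gene tested), a log2 fold change of 0.5 or more in size and 1 sign in both libraries. Because the sums come from 2 libraries, the p-values measure only the spread between these sums, which may be technical.

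LOXL2 and PLOD2 fell in cycling cells, and DESeq2 also called 2 members lower. LOXL2 had 7.80 and 12.1 CPM in cycling cells of libraries 1 and 2, against 17.3 and 32.8 CPM in non-cycling cells. The log2 fold change was -1.37 ± 0.08 (SE; edgeR adjusted p = 2.34e-13). PLOD2 had 25.5 and 28.9 CPM in cycling cells, against 35.6 and 39.3 CPM in non-cycling cells, a log2 fold change of -0.52 ± 0.06 (edgeR adjusted p = 4.57e-09). The change of PLOD2 lay just past the limit of 0.5. It was -0.47 when cells were thinned to 3000 UMIs and -0.46 without scaling factors, and was then not called.

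P4HA1 had 106 and 87.7 CPM in cycling cells, against 132 and 109 CPM in non-cycling cells. Its log2 fold change of -0.37 ± 0.05 stayed under the size limit (edgeR adjusted p = 3.84e-07). For LOX the values were 65.3 and 72.3 CPM in cycling cells, against 70.1 and 86.2 CPM in non-cycling cells, with a log2 fold change of -0.24 ± 0.06, also under the limit. LOXL1 had 36.1 and 38.2 CPM in cycling cells, against 36.7 and 39.4 CPM in non-cycling cells (log2 fold change -0.09 ± 0.06, edgeR adjusted p = 0.207). Over all 17038 genes tested, 9.54% were called lower and 8.23% higher in cycling cells. Across 8026 genes, Spearman's rho of log2 fold change and genomic length was -0.14. Mural markers summed to 8.24 and 12.1 CPM in cycling cells, against 17.9 and 31.3 CPM in non-cycling cells, and their part in the LOXL2 result was not tested.

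By number of core cycle genes detected, in steps of 0, 1 to 2, 3 to 5, 6 to 9 and 10 to 15, LOXL2 measured 17.3, 13, 8.39, 8.18 and 5.93 CPM in library 1. The same steps gave 32.8, 22.1, 15, 10.2 and 11.1 CPM in library 2. LOXL2 was thus lower at 3 to 5 genes than at 0 or 1 to 2 in both libraries. PLOD2 measured 35.6, 31.7, 28.6, 23.1 and 24.4 CPM in library 1 and 39.3, 32.8, 30.8, 28.6 and 26.6 CPM in library 2. LOX was lowest at 6 to 9 genes, with 61.6 CPM in library 1 and 69.5 CPM in library 2, and had 77.0 and 73.9 CPM at 10 to 15 genes. At 0 genes it had 70.1 and 86.2 CPM, so that only library 1 ended above its start. Counting intervals of LOX overlapped between 3 to 5 and 6 to 9 genes in both libraries, and between 6 to 9 and 10 to 15 genes in library 2. LOXL1 stayed between 35.6 and 40.6 CPM at every step of both libraries.

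**Figure D2:**
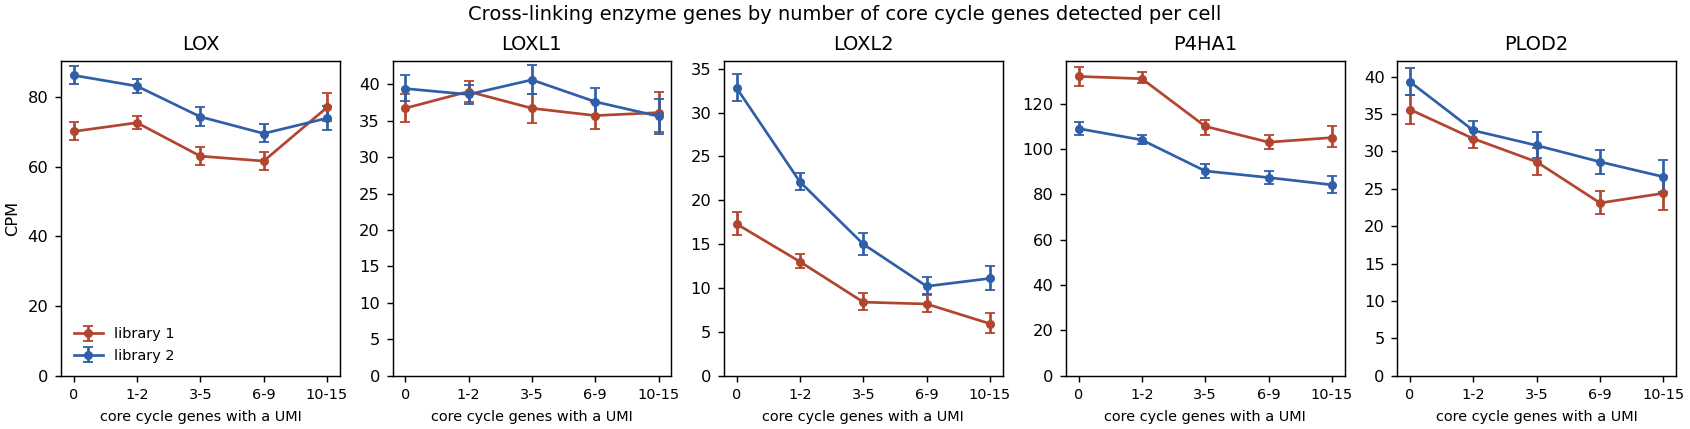
Level in CPM against the number of the 15 core cycle genes with a UMI in a cell thinned to 5000 UMIs, one panel per gene. Points are summed counts of the cells in each step of 1 library, and bars are exact Poisson 95% intervals. LOXL2 and PLOD2 stood highest in cells with 0 core cycle genes and LOXL1 hardly moved.

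In 6 lists of other pathway genes, every gene that edgeR called was lower in cycling cells, as LOXL2 was. Of 12 substrate genes measured, 8 fell, led by COL5A3 (-0.96 ± 0.12) and COL12A1 (-0.80 ± 0.05), a fibril-associated collagen. The list's median log2 fold change was -0.60, beside -0.01 for all genes tested. Of 14 genes for propeptide processing and lysyl oxidase activation, 6 fell. They were led by THBS1 (-1.07 ± 0.08), a matrix glycoprotein, and EFEMP2 (-0.81 ± 0.05), the fibulin that brings LOX to elastin. LOXL4, a further lysyl oxidase, fell by 1.58 ± 0.12. Of 11 other hydroxylase genes only the prolyl 3-hydroxylase family gene P3H3 fell (-0.55 ± 0.06). Of 13 folding and export genes only CREB3L1 fell (-0.67 ± 0.05), a transcription factor of collagen secretion. Of 9 supply genes only the metal ion transporter SLC39A14 fell (-0.51 ± 0.07).

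Contractile genes mark a myofibroblast-like state, in which fibroblasts carry smooth muscle actin and pull on their matrix. Non-cycling cells were ranked within each library by a score over 10 contractile genes, among them ACTA2, TAGLN and MYL9, and split into 4 equal classes, and the top class was compared with the bottom class. The score holds none of the 5 enzymes. There were 463 high and 466 low cells in library 1 and 643 and 645 in library 2. Median depth was 19296 against 21061 UMIs in library 1 and 20605 against 19931 UMIs in library 2.

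LOXL2 rose in contractile-high cells by the widest margin seen for any member in the comparisons of classes. It had 31.6 and 67.9 CPM in contractile-high cells of libraries 1 and 2, against 7.93 and 13.2 CPM in contractile-low cells. The log2 fold change was 2.27 ± 0.12 (edgeR adjusted p = 5.02e-08), 2.00 in library 1 and 2.40 in library 2. In the classes between, from low to high, it measured 11.8 and 18.4 CPM in library 1 and 19.5 and 27.3 CPM in library 2, so that LOXL2 was higher at every step up the score. In library 1 the counting intervals of the lowest class and the next overlapped, 6.3 to 9.98 CPM against 9.69 to 14.2 CPM. The share of thinned cells with a LOXL2 UMI was 16.0% and 18.7% in the top class, against 4.97% and 5.75% in the bottom class.

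The other 4 members were not called by edgeR. LOX ran the other way, with 53.0 and 79.4 CPM in contractile-high cells, against 79.4 and 92.3 CPM in contractile-low cells. Its log2 fold change was -0.34 ± 0.10 (edgeR adjusted p = 0.0302), under the size limit, with -0.55 in library 1 and -0.16 in library 2. PLOD2 had 41.4 and 44.3 CPM in high cells, against 31.0 and 35.2 CPM in low cells (0.41 ± 0.09, edgeR adjusted p = 0.00832). P4HA1 had 143 and 121 CPM in high cells, against 126 and 97.5 CPM in low cells (0.29 ± 0.08, edgeR adjusted p = 0.0207). LOXL1 had 37.2 and 40.2 CPM in high cells, against 35.1 and 38.5 CPM in low cells (0.12 ± 0.09, edgeR adjusted p = 0.472). Of 13135 genes tested, 4.93% were called higher and 4.36% lower in contractile-high cells.

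LOXL4 was also called higher by edgeR, though not by DESeq2, with 8.90 and 13.6 CPM in contractile-high cells, against 3.91 and 7 CPM in contractile-low cells (log2 fold change 1.09 ± 0.17). Of 14 processing and activation genes, 4 rose and 2 fell with edgeR, and DESeq2 called 3 of the 14. THBS1 rose by 2.43 ± 0.24 and ADAMTS3, a procollagen N-proteinase, by 0.85 ± 0.22. The transglutaminase gene TGM2 (-1.53 ± 0.39) and POSTN (-1.40 ± 0.07), which encodes periostin, a matricellular protein that helps BMP1 activate LOX, fell. Of 11 substrate genes tested, COL5A2 (0.90 ± 0.06) and COL5A1 (0.60 ± 0.08) led 3 that rose, while COL14A1 (-0.97 ± 0.07) and COL6A3 (-0.51 ± 0.08) were the 2 that fell. P4HA3, another alpha subunit, was the 1 of 10 other hydroxylase genes that fell (-0.55 ± 0.08). Of 12 folding and export genes 0 were called by edgeR or DESeq2, with 5 at an unadjusted p under 0.05. Of 8 supply genes 0 were called by either, with 0 at that unadjusted p. The list medians of log2 fold change lay between 0.03 and 0.55, beside 0.01 for all genes tested.

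Markers of mural cells, the pericytes and smooth muscle cells of vessels that also carry contractile genes, summed to 23.1 and 37.3 CPM in contractile-high cells, against 14.3 and 26.3 CPM in contractile-low cells. ABCC9 was the highest of them, and 1 of the 6 markers was at 0 in each class and library. The epithelial list, which was almost wholly KRT19, summed to 4.99 and 2.71 CPM in contractile-high cells, against 21.9 and 19.4 CPM in contractile-low cells. Mesothelial markers, mostly CALB2, summed to 8.79 and 4.39 CPM in contractile-high cells, against 15.7 and 8.35 CPM in contractile-low cells. Endothelial markers, mostly PECAM1, summed to 12.6 and 10.9 CPM in contractile-high cells, against 14.2 and 19.1 CPM in contractile-low cells. The part of any of these in the LOXL2 result was not tested.

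Cells rich in collagen transcripts carry the most substrate for these enzymes. Non-cycling cells were ranked by a score over the 6 measured genes COL1A1, COL1A2, COL3A1, COL5A1, COL5A2 and COL6A3, and the top of 4 equal classes was compared with the bottom one, 463 against 463 cells in library 1 and 643 against 643 in library 2. The ranking used the same non-cycling cells as the contractile score, so the comparisons are not independent. Collagen-high cells were shallower than collagen-low cells, with medians of 16288 against 22890 UMIs in library 1 and 14473 against 23570 UMIs in library 2.

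LOXL2, PLOD2 and LOX rose in collagen-high cells, 3 of the 5, where 5.25% of 13136 genes tested were called higher and 3.86% lower. LOXL2 had 25.7 and 51.6 CPM in collagen-high cells, against 9.76 and 20.5 CPM in collagen-low cells, a log2 fold change of 1.34 ± 0.11 (edgeR adjusted p = 1.59e-14). PLOD2 had 46.4 and 49.8 CPM in collagen-high cells, against 26.4 and 29.4 CPM in collagen-low cells (0.76 ± 0.09, edgeR adjusted p = 3.55e-09). LOX had 90.2 and 113 CPM in collagen-high cells, against 55.2 and 70.2 CPM in collagen-low cells (0.67 ± 0.07, edgeR adjusted p = 4.41e-10). Of these 3 genes, LOX had the log2 fold changes that lay furthest apart, 0.65 in library 1 and 0.69 in library 2. The share of higher among called genes was 57.6%, but 75.3% with DESeq2, which called the same number of members.

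LOX thus stood higher with the collagen score and not with the contractile score. Across the 4 collagen classes from low to high it measured 55.2, 66.7, 73.8 and 90.2 CPM in library 1 and 70.2, 79.1, 89.3 and 113 CPM in library 2. P4HA1 had 144 and 122 CPM in collagen-high cells, against 120 and 97.9 CPM in collagen-low cells, which at 0.27 ± 0.07 stayed under the size limit (edgeR adjusted p = 0.0024). LOXL1 had 35.9 and 41.1 CPM in collagen-high cells, against 35.3 and 39.4 CPM in collagen-low cells (0.02 ± 0.09, edgeR adjusted p = 0.886).

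The log2 fold changes of this comparison ran with genomic length across 7763 genes (Spearman's rho 0.40). The genes in the length class of LOXL2 and PLOD2 had a median of 0.19, and those in the class of LOX a median of -0.06. The part of length and of depth in the result was not tested, and all 3 calls held when cells were thinned to 3000 UMIs before they were ranked, with 0.98 for LOXL2, 0.82 for PLOD2 and 0.55 for LOX. Mural markers summed to 23.4 and 47.9 CPM in collagen-high cells, against 14.1 and 19.9 CPM in collagen-low cells, and their part was not tested.

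Among the partners, 6 of 12 folding and export genes rose in collagen-high cells and 0 fell, led by CREB3L1 (1.26 ± 0.08) and SERPINH1 (0.79 ± 0.06), the collagen chaperone HSP47. The list's median was 0.50, beside 0.01 for all genes tested. LOXL4 rose by 1.88 ± 0.17, with 11.3 and 18.3 CPM in collagen-high cells, against 3.03 and 4.92 CPM in collagen-low cells. Of 10 other hydroxylase genes tested only P4HA2, the second alpha subunit of prolyl 4-hydroxylase, rose (0.54 ± 0.07). THBS1 (0.67 ± 0.12) and ADAMTS2, the main procollagen I N-proteinase (0.67 ± 0.08), led 3 of 14 processing genes that rose with edgeR, of which list DESeq2 called 2. ATP7A, which pumps copper into the secretory pathway (0.63 ± 0.13), and SLC39A13, a zinc transporter of that pathway (0.61 ± 0.13), were the 2 of 8 supply genes that rose. DESeq2 called 0 of these 8. Of the 4 substrate genes outside the score that were tested, COL5A3 (1.00 ± 0.20) and FBN1 (0.51 ± 0.06) rose.

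LOX, LOXL2, P4HA1 and PLOD2 are known targets of hypoxia-inducible factors, so non-cycling cells were also ranked by a score over 20 other hypoxia-responsive genes such as VEGFA, ADM and PDK1. LOXL2 alone was called, and library 2 carried that call. LOXL2 had 18.1 and 40.7 CPM in hypoxia-gene-high cells of libraries 1 and 2, against 17.0 and 23.2 CPM in hypoxia-gene-low cells. The log2 fold change was 0.51 ± 0.11 (edgeR adjusted p = 0.00197), with 0.04 in library 1 and 0.80 in library 2, and in library 1 the counting intervals of the classes overlapped, 15.4 to 21.0 CPM against 14.5 to 19.8 CPM. DESeq2 did not call it (0.45), nor did edgeR without the cells of the highest doublet scores or without 2 shallow clusters (0.49 in both), or with the cells split into 3 classes (0.47).

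PLOD2 had 37.9 and 45.0 CPM in hypoxia-gene-high cells, against 34.5 and 33.9 CPM in hypoxia-gene-low cells (0.26 ± 0.10, edgeR adjusted p = 0.359). P4HA1 had 138 and 115 CPM in high cells, against 122 and 99.4 CPM in low cells (0.17 ± 0.08, edgeR adjusted p = 0.611). LOX had 67.7 and 84.2 CPM in high cells, against 72.0 and 84.2 CPM in low cells (-0.07 ± 0.08, edgeR adjusted p = 0.948). LOXL1 had 36.9 and 40.1 CPM in high cells, against 34.7 and 39.6 CPM in low cells (0.02 ± 0.10, edgeR adjusted p = 0.992). The comparison called few genes at all, 0.305% of 13134 higher and 0.099% lower, and 75.5% of its calls were higher, beside 100% with DESeq2 and 89.1% without scaling factors. In the 6 pathway lists edgeR and DESeq2 called 0 genes, and 6 genes of these lists had an unadjusted edgeR p under 0.05. A p that misses the threshold does not show that the enzymes were equal in these classes.

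**Figure D3:**
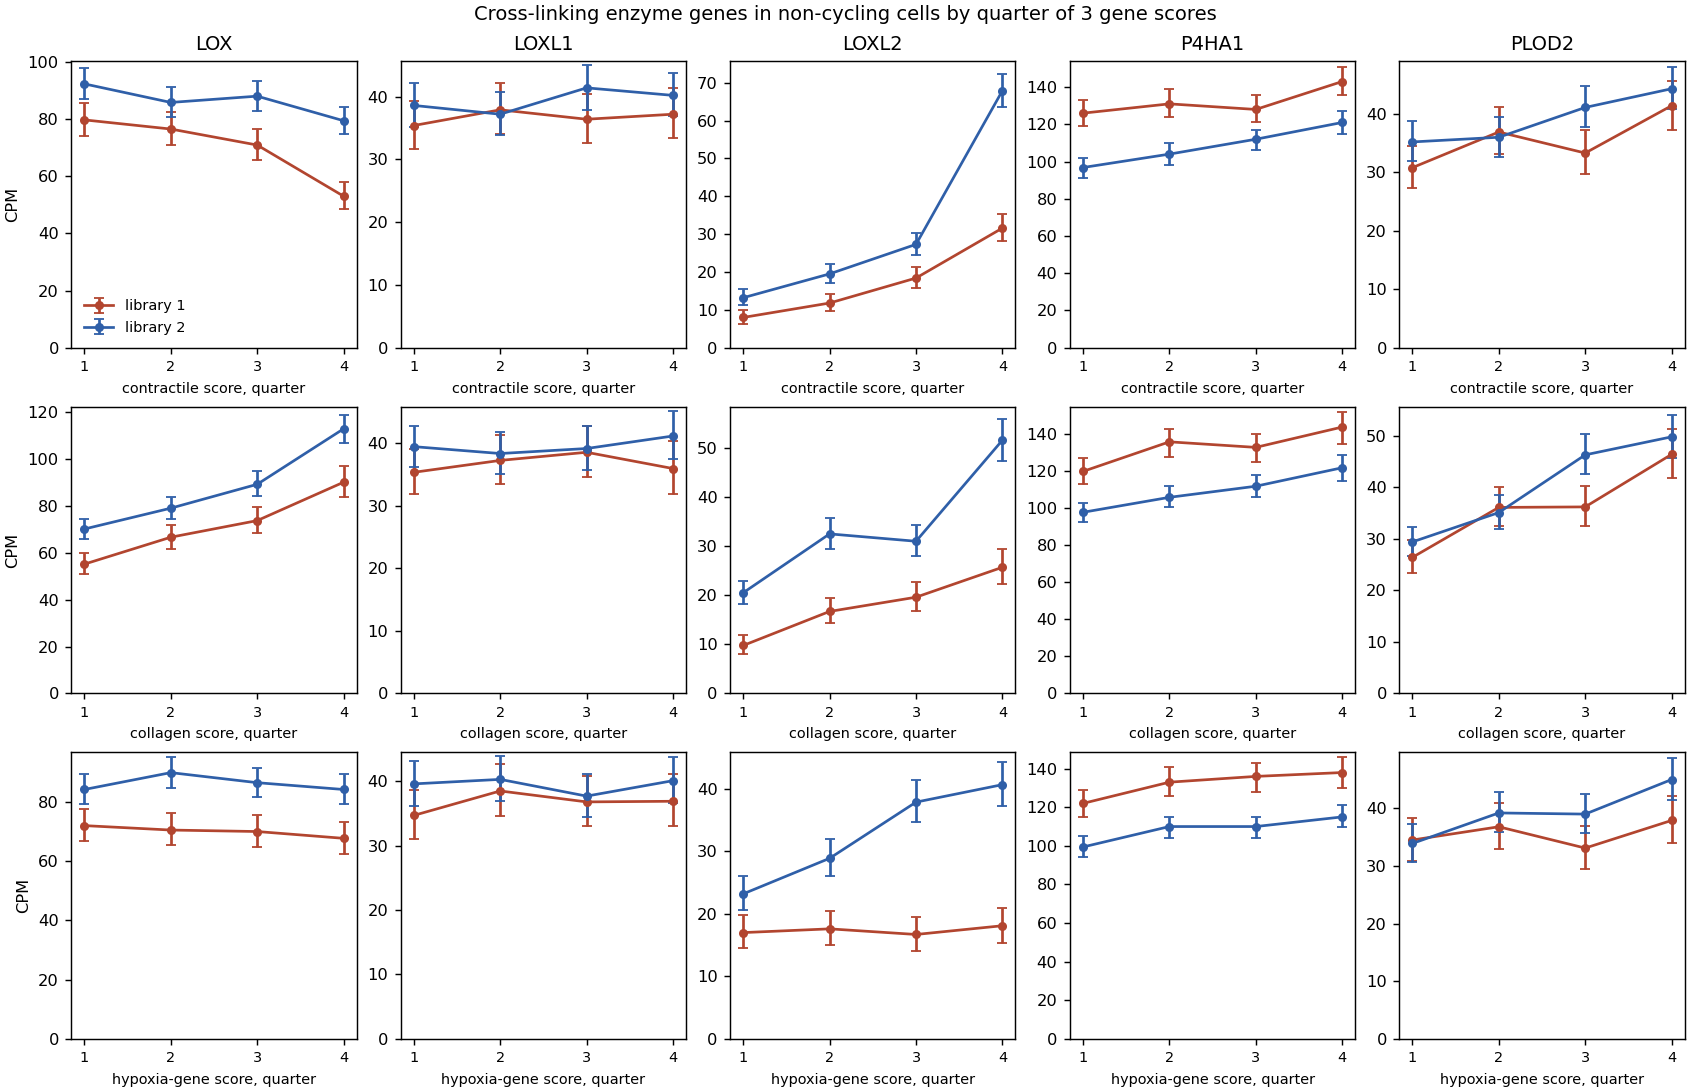
Level in CPM of each gene (columns) in non-cycling cells by class of the contractile score (top row), the collagen score (middle row) and the hypoxia-gene score (bottom row), from the lowest class, 1, to the highest, 4. Points are summed counts of 1 library and bars are exact Poisson 95% intervals. LOXL2 climbed at every class of the contractile score in both libraries, of the collagen score in library 1 and of the hypoxia-gene score in library 2. Intervals of some neighbouring classes overlapped in each score. With the collagen score in library 2, LOXL2 was 20.5 CPM in class 1 and 51.6 CPM in class 4, with 32.5 and 31.0 CPM in classes 2 and 3.

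**Figure D4:**
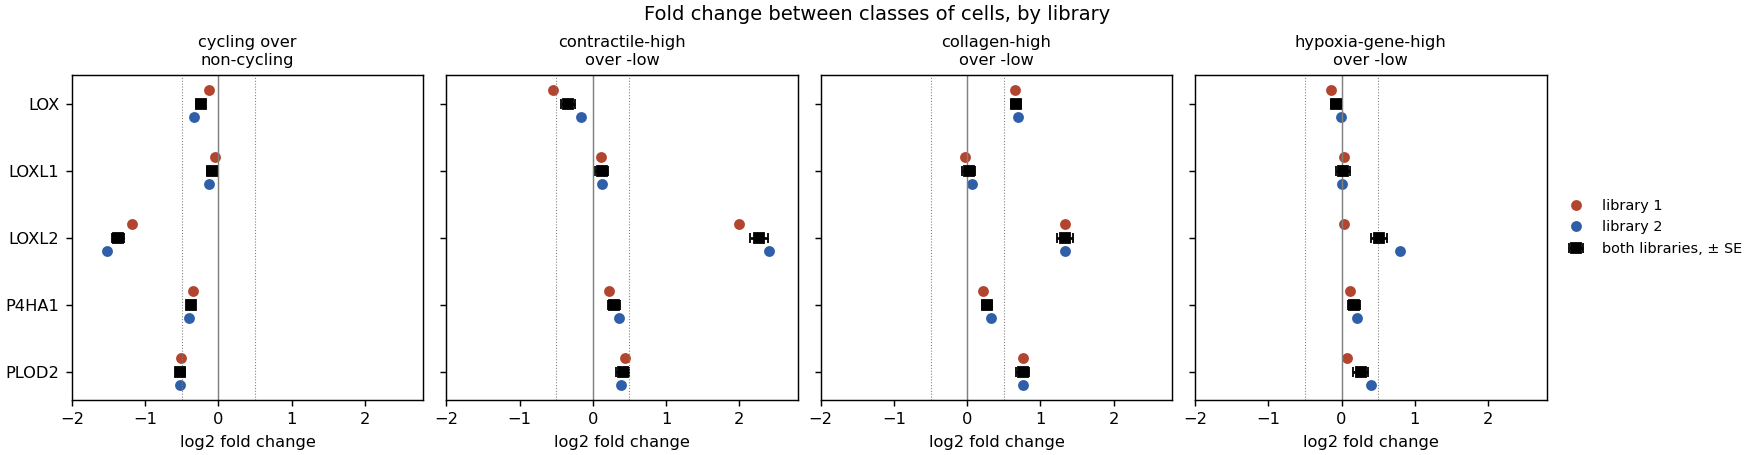
Log2 fold change of the first class over the second in 4 comparisons. Black squares are the fit over both libraries with its SE, circles are the single libraries, and dotted lines mark the size limit of 0.5. LOXL2 lay past the limit in both libraries in the first 3 comparisons, and LOXL1 lay near 0 in all 4.

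Clusters of cells were drawn from 2000 variable genes that included none of the enzymes or pathway genes. Cluster 1 was marked by ALDH1A3, CEMIP and LCN2 and cluster 2 by CLEC3B, ALDH1A1 and IGFBP5. Of the cells of clusters 1 and 2 that had 5000 UMIs, 6.25% to 12.9% were cycling. Clusters 3 (FBXO5, SGO1 and DIAPH3) and 4 (PIMREG, CDC20 and PTTG1) held mostly cycling cells, 88.8% to 92.0%. Cluster 5, led by ACTB, and cluster 6, led by TOX, CEMIP and PDE3A, were small and shallow. Their medians were 2293 and 3081 UMIs and 4927 and 3524 UMIs in libraries 1 and 2, and they were given no cell type name.

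Of the 5 genes, LOXL2 differed most between clusters 1 and 2, where 34.8% and 40.5% of cluster 1 and 26.7% and 28.1% of cluster 2 were non-cycling in libraries 1 and 2, among cells that had 5000 UMIs. In those non-cycling cells it had 23.2 and 46.2 CPM in cluster 1, against 8.64 and 10.4 CPM in cluster 2, which is 2.69-fold and 4.44-fold higher in libraries 1 and 2. That level of cluster 2 lay close to the levels of the cycling clusters, which had 7.14 and 11.3 CPM in cluster 3 and 7.98 and 9.62 CPM in cluster 4. Cluster 1 held 51.7% and 65.0% of all LOXL2 UMIs in 28.6% and 32.4% of the cells, and 78.3% and 81.7% of the LOXL2-rich 1% of cells. Within non-cycling cells of cluster 1, those above the median contractile score had 31.8 and 62.1 CPM of LOXL2, against 15.1 and 29.2 CPM below it. Within cluster 2 the same split gave 10.5 and 11.8 CPM above the median, against 6.80 and 8.87 CPM below it. Cells of cluster 2 above their own median stayed under the lower cells of cluster 1 in the same library. In library 1 the counting intervals overlapped, 8.33 to 13.1 CPM against 12.8 to 17.6 CPM. Each cluster was split at its own median, so these groups are not matched in contractile score.

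LOX showed the opposite order of these clusters, with 61.4 and 79.4 CPM in non-cycling cells of cluster 1, against 84.6 and 99.9 CPM in cluster 2. LOXL1, P4HA1 and PLOD2 differed between them by at most 1.13-fold in either library. Over all cells of a cluster, LOX was highest in cluster 2, with 84.2 and 94.0 CPM, followed by cluster 4 with 78.8 and 79.7 CPM, although in library 2 the intervals of clusters 4 and 1 overlapped. Clusters 1 and 3 had 61.1 and 78.9 CPM and 58.1 and 65.5 CPM. P4HA1 and PLOD2 were lower in cycling clusters 3 and 4 than in clusters 1 and 2 in both libraries.

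Each cluster was also tested against the mean of the others with edgeR. The clusters were drawn from other genes of the same cells, so these p-values are not independent of the grouping. LOXL2 rose in cluster 1 (log2 fold change 1.32 ± 0.11, edgeR adjusted p = 2.31e-07), where 8.48% of the genes not used to cluster were called higher. It fell in clusters 2 (-1.01 ± 0.13), 3 (-0.80 ± 0.13) and 4 (-0.91 ± 0.14), where 2.83%, 2.72% and 3.69% of those genes were called lower. In cluster 1, 3.61% of those genes were called lower. Without scaling factors the LOXL2 values were 1.10, -1.18, -0.97 and -1.02 in clusters 1 to 4. LOX rose in clusters 2 (0.76 ± 0.07) and 4 (0.51 ± 0.08), with 6.67% and 11.1% of genes called higher. Both LOX calls were lost when the shallow clusters 5 and 6 were left out (0.35 and 0.07), while the 4 LOXL2 calls held (1.86, -0.73, -0.51 and -0.62). P4HA1 fell in cluster 5 (-0.58 ± 0.13), where 7.66% of genes were called lower. Log2 fold changes ran with genomic length there too (Spearman's rho -0.71 across 8427 genes), with a median of -0.36 for the length class of P4HA1. In clusters 1 to 4 the rho was -0.41, -0.32, -0.47 and -0.54, and the class of LOXL2 and PLOD2 had medians of -0.05, -0.01, -0.10 and -0.08. The part of length in these results was not tested.

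The other members were not called in clusters 1 to 5. In cluster 1 the log2 fold changes were 0.39 for LOX, 0.35 for LOXL1, 0.24 for P4HA1 and 0.23 for PLOD2. That of LOX turned to -0.06 without clusters 5 and 6. Without scaling factors the cluster 1 values were 0.17 for LOX, 0.15 for LOXL1, 0.02 for P4HA1 and 0.01 for PLOD2. In CPM, P4HA1 and PLOD2 stood lower in cluster 1 than in the mean of the others in both libraries. In cluster 2 the log2 fold changes were 0.16 for LOXL1, 0.12 for P4HA1 and 0.07 for PLOD2, and without scaling factors 0, -0.04 and -0.10. In cluster 3 LOX had 0.13 and LOXL1 0.12, and both had -0.04 without scaling factors. P4HA1 had -0.26 and PLOD2 -0.44 there, and PLOD2 was called without scaling factors (-0.61). In cluster 4 LOXL1 had 0.17, which turned to -0.03 without clusters 5 and 6, P4HA1 had -0.12 and PLOD2 -0.31. In cluster 5 LOX had -0.05, LOXL1 0.32 and PLOD2 -0.24 (-0.54 and called without scaling factors), and LOXL2 had -0.06, or 0.03 without the cells of the highest doublet scores.

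The share of higher among all called genes moved with the scaling. It was 70.0%, 66.6%, 76.3%, 64.8%, 54.3% and 41.5% in clusters 1 to 6, and 32.8%, 35.8%, 48.5%, 44.9%, 9.3% and 72.8% without scaling factors.

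Cluster 6 stood apart in 360 and 117 cells. LOXL2 had 45.1 and 106 CPM there, P4HA1 335 and 244 CPM and PLOD2 77.7 and 128 CPM, and all 3 were called higher (1.47 ± 0.21, 0.60 ± 0.10 and 0.70 ± 0.11). LOX, with 35.6 and 50.8 CPM, and LOXL1, with 34.3 and 28.4 CPM, were called lower (-1.73 ± 0.16 and -1.12 ± 0.15). Without scaling factors the median of all genes in this cluster stood at 0.96 instead of 0.01 on the log2 scale, and LOXL1 was then not called (-0.18). The cluster's median share of mitochondrial RNA was 1.15% and 2.93%, the highest of the 6, and 17.1% and 31.1% of genes not used to cluster were called higher and lower. Log2 fold changes in cluster 6 ran with genomic length (Spearman's rho 0.75 across 8427 genes). The genes around LOXL2 and PLOD2 in length had a median of 0.86, those around P4HA1 0.51, those around LOXL1 -0.78 and those around LOX -1.45. The order of the members in cluster 6 was thus the order of their length classes, and the part of length in these values was not tested.

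**Figure D5:**
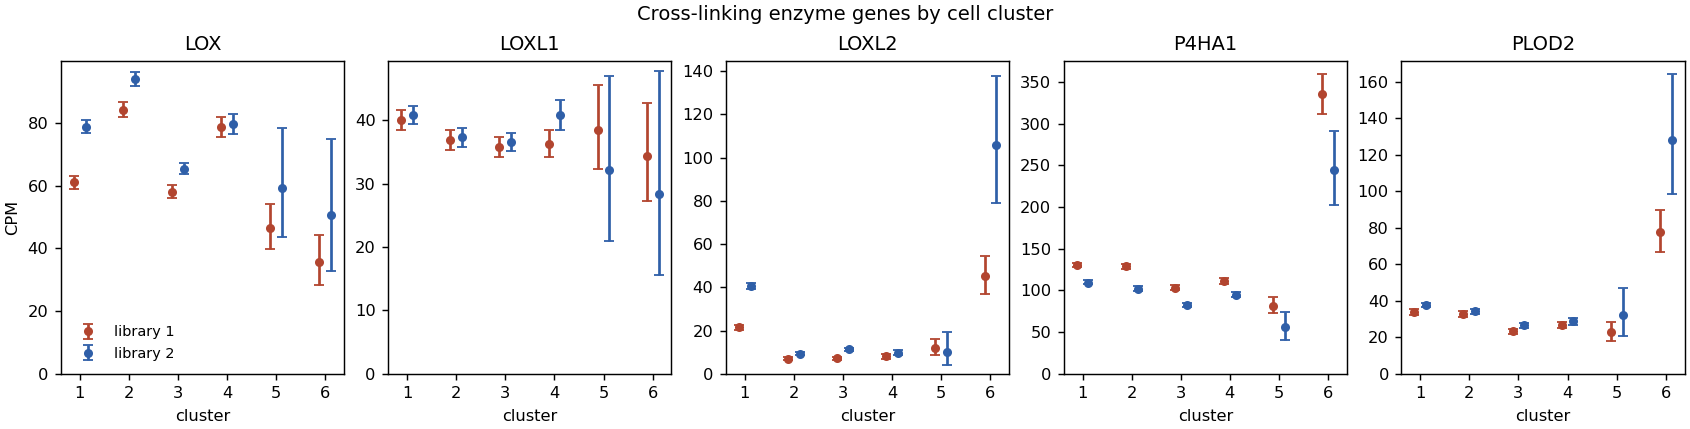
Level in CPM of each gene in 6 cell clusters, with 1 point per library and exact Poisson 95% intervals. Among the 4 deep clusters, 1 to 4, LOXL2 stood highest in cluster 1 and LOX in cluster 2. The shallow cluster 6 had the highest LOXL2, P4HA1 and PLOD2.

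Between single cells the 5 enzymes hardly followed one another. Over 10 pairs, Pearson's r of log thinned counts lay between -0.00466 and 0.0357 across 9581 cells of library 1 and between -0.0198 and 0.0386 across 11598 cells of library 2. Over all cells the pair with the highest r in both libraries was LOXL2 and PLOD2, found together in 1.12% and 1.40% of cells, beside 0.852% and 1.09% from the product of their single shares. Among non-cycling cells its r was 0.0121 and 0.0309 and another pair was higher in each library. Thinned counts this sparse hold correlations near 0, and cells of 1 library share its preparation.

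The genes most like each member were ranked by the lower r of the libraries over 7337 genes, whose median of that value lay between -0.0102 and -0.00419. COL1A2 was most like LOX (0.158 and 0.10 in libraries 1 and 2), followed by ALDH2 (0.098 and 0.084) and CLU (0.077 and 0.084). For LOXL2 the list was TAGLN (0.144 and 0.205), COL1A1 (0.128 and 0.156) and TPM1 (0.125 and 0.179). COL5A2 (0.090 and 0.070), COL1A1 (0.091 and 0.069) and ADAMTSL1 (0.067 and 0.072) were most like PLOD2. CALD1 (0.087 and 0.062), FAT1 (0.063 and 0.060) and PLXDC2 (0.064 and 0.059) were most like P4HA1. For LOXL1 the highest values were those of PPARG (0.043 and 0.039), BGN (0.044 and 0.031) and TPM1 (0.043 and 0.031), little above 0. Among non-cycling cells alone the first gene was again COL1A2 for LOX (0.211 and 0.121), and TPM1 (0.177 and 0.185) took the first place for LOXL2.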

How the data were processed

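The deposited files hold, per the file headers, raw UMI counts per gene and cell barcode made by the authors with Cell Ranger 7.0.0 (given as 7.00 in the submitters' processing notes). The genome build was Sscrofa 11.1, per the submitters' processing notes. The libraries were made with the Chromium 3′ kit version 3.1, per the labels' protocols. Barcodes with at least 1000 genes were kept, with no further filter. Scrublet (scanpy 1.11.5) called 0% of cells in library 1 and 6.26% in library 2. A caller that marks under 0.5% has not worked, so no doublets were removed, and an alternative left out the 8% of cells with the highest scores. Cells with at least 5000 UMIs were thinned to that number to set classes, and full counts were summed per library and class. Clusters came from 30 principal components, 15 neighbours and Leiden resolution 0.4. Sums were tested with edgeR 4.0.16 (TMM scaling, filterByExpr) with library as a block, because each library supplied both classes and so pairs their sums. DESeq2 1.42.0 was an alternative. Each fit has 4 sums, or 12 for the clusters, so its p-values lean on a variance shared between genes. The edgeR test was also run on simulated sums with known changes. Those sums were drawn independently with the same spread setting for every gene, and no cells were sorted by scores. They cannot show how the p-values behave for the classes and clusters here.

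The enzymes, the gene lists and the tests were chosen with earlier results of these data known. In each comparison the text names all 5 enzymes, and, within the 4 class comparisons, from each pathway list up to 2 called genes per direction with the largest log2 fold change and a mean of at least 1 CPM. It also names the 3 genes most like each enzyme. Of 14 substrate genes, 12 were found by symbol. Genomic lengths come from the RefSeq annotation of Sscrofa11.1. Alternatives were the fit without the block, DESeq2, no filter, other class limits, thinning to 3000 UMIs, leaving out a library, no scaling factors and leaving out the shallow clusters 5 and 6. The last 2 were chosen after seeing the data.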

Additional observations from a re-analysis of the deposited data

Results flagged for a closer look

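Barcodes with under 1000 genes, 1692 in library 1 and 972 in library 2, were outside the comparisons and still held all 5 enzymes above the 3-count limit of 1.68 and 3.35 CPM. LOX had 82.1 and 74.9 CPM there in libraries 1 and 2, LOXL1 42.4 and 40.2 CPM and LOXL2 16.8 and 26.8 CPM. P4HA1 had 158 and 149 CPM and PLOD2 42.4 and 50.3 CPM. LOXL1, LOXL2, P4HA1 and PLOD2 stood above their levels in the kept cells of both libraries, and LOX stood above it in library 1 only. These values rest on 24 to 283 UMIs each, with 76 and 36 for LOXL1 and 30 and 24 for LOXL2 in libraries 1 and 2. No counting intervals were computed for them, and the part of counting error in these differences was not tested.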

How the results depend on the processing

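Without the replicate block, 0 members were called in the 4 class comparisons, and LOXL2 had adjusted edgeR p-values between 0.242 and 1 there, with log2 fold changes within 0.03 of the blocked ones. The calls over all genes were then 318 higher and 56 lower for the cycling comparison (1402 and 1625 with the block), 2 and 0 for the contractile one (648 and 573), and 0 and 0 for the collagen and hypoxia-gene ones (689 and 507, 40 and 13). Without the block, 0 members were also called lower in clusters 2, 3, 4 and 5. DESeq2 called 337 and 233 genes in the contractile comparison, 354 and 116 in the collagen one and 9 and 0 in the hypoxia-gene one. The 1 hypoxia-gene member call became 0 with DESeq2, without the highest doublet scores, without clusters 5 and 6 and with 3 score classes. The 2 cycling calls became 1 when thinned to 3000 UMIs or without scaling factors.

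In the clusters, the 1 member called lower in cluster 3 became 2 with DESeq2, without the highest doublet scores and without scaling factors. The 1 called higher in cluster 4 became 0 under each of these and without clusters 5 and 6, and the 1 called higher in cluster 2 became 0 without clusters 5 and 6. Without scaling factors, members called lower were 2 in cluster 5 and 1 in cluster 6, against 1 and 2. Between libraries, the 1 member called lower became 0 as a mean over cells and in cycling cells only. Signs turned for values that were not called: in the hypoxia-gene comparison for LOX (0.05, thinned to 3000 UMIs) and LOXL1 (-0.07, 3 score classes), and in cluster 5 for LOXL2 (0.03, without the highest doublet scores). Without clusters 5 and 6 they turned for LOX in clusters 1 (-0.06) and 3 (-0.36) and for LOXL1 in clusters 2 (-0.04), 3 (-0.10) and 4 (-0.03). Without scaling factors they turned in cluster 2 for LOXL1 (0), P4HA1 (-0.04) and PLOD2 (-0.10), and in cluster 3 for LOX and LOXL1 (-0.04 each). PLOD2 in cluster 2 was 0 with DESeq2. The cause of these changes was not tested. Of the members' fold changes under alternatives, 368 were counted as unchanged, 14 turned sign, 25 lost and 4 gained a call and 19 values with no test moved. For a tested fit, unchanged means the same direction and the same side of the call. For a value of 1 library it means only a distance from the joint value under the standard deviation of both library values. Such a value can turn sign or drop under the size limit. LOXL2 did the latter in the hypoxia-gene comparison, with 0.04 in library 1 against 0.51 jointly. Fits on 1 library have no residual spread and gave LOXL2 values without a test, the lowest and highest being -1.52 and -1.18 for cycling, 2.00 and 2.40 for contractile, 1.33 for collagen in both, and 0.04 and 0.80 for hypoxia genes.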
